A study of Homo sapiens with 6 samples.

Results

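The genes described here are 9 genes of the tumour suppressor p53's pathway that either feed back on p53 itself (MDM2, MDM4, PPM1D, CCNG1 and ZMAT3) or act in cell-cycle arrest (CDKN1A, BTG2, GADD45A and PLK2). They were taken by symbol from the 20020 genes of the deposited count table, and all 9 were among the 12925 genes that passed the filter on low counts. In irradiated CAD-knockout cells against irradiated control cells, none of the 9 passed the test, which asked for an adjusted p under 0.05 and a fold of 1.5 or more and which 0.0309% of all genes tested passed. PLK2 was the one member whose libraries did not overlap between the groups, with 286 ± 23.9 CPM in the knockout against 216 ± 1.78 CPM in the control (SD, n = 3 each), and 10.2% of all genes tested likewise had no overlap. The other 8 had a lower fitted level in CAD-KO2+IR, CDKN1A among them at 1029.6 ± 236 against 1340.1 ± 429 CPM, and none of these differences passed the test. Over all genes 51.9% were lower, and without sgVec+IR replicate 3 the 8 of 9 became 5 of 9.

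The study asked what loss of CAD does to the response of colorectal cancer cells to ionizing radiation (IR). The cells were HCT116, an established line from a human colorectal carcinoma, and CAD here is caspase-activated DNase, a nuclease that cuts DNA during apoptosis and is encoded by DFFB. RNA was sequenced in 3 libraries of CAD-KO2+IR, cells with 1 of the CAD guide RNAs in the lentiCRISPRv2 vector, and in 3 libraries of sgVec+IR, the vector control, and both groups were taken 24 h after 8 Gy. Whether CAD-KO2 is a clone or a pool is not given in the sources used here, and 1 knockout line was sequenced. Every library was irradiated, so the rise of these genes with radiation itself was not measured. The sources do not say that the 3 libraries of a group came from separate cultures, so the p-values measure the spread between these libraries, which may be technical.

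When DNA is damaged, kinases such as ATM stabilize p53, which then binds and activates its target genes. Some targets close a loop: MDM2 is a ubiquitin ligase that marks p53 for degradation, its relative MDM4 blocks the activation domain of p53, and the phosphatase PPM1D (WIP1) removes activating phosphates from p53 and from the kinases upstream of it. Others hold the cell cycle, foremost CDKN1A, whose product p21 inhibits cyclin-dependent kinases. HCT116 is widely used in work on this response.

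The targeted gene DFFB had 10.8 ± 1.32 CPM with the guide against 21.9 ± 0.995 CPM without it. The log2 fold change was -1.02 (SE 0.193, edgeR's quasi-likelihood test, Benjamini-Hochberg adjusted p = 0.550). The groups did not overlap, as for 5.01% of all genes tested with the knockout lower. RNA does not measure the CAD protein, and the paper checked its stable HCT116 lines by western blot. CPM are counts scaled to a common library size, after TMM adjustment of that size. Totals ran from 14032994 to 19574144 counts, and the 3 knockout libraries were all deeper than the 3 controls. Epithelial markers summed to between 2156 and 4199 CPM, with 7 or 8 of these 11 genes at 1 CPM or more in a library. Markers of leukocytes, endothelium, fibroblasts and muscle summed to between 22.0 and 65.3 CPM, with 4 to 10 of these 15 genes at 0. In bulk RNA, fewer cells with a transcript and less of it per cell cannot be told apart.

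A pair of libraries stood apart from their own groups, CAD-KO2+IR replicate 2 and sgVec+IR replicate 3. In the first, 23.3% of the genes tested lay at least 1.5-fold from the mean of the other 2 libraries of the group, and in the second 59.0%. Both deviations followed the GC content of the transcript: across 12885 genes, Pearson's r was -0.809 and -0.705, given as a description, since genes are not independent and share a library. In the fifth of genes with the lowest GC content the median deviation was 0.44 and 0.78 on the log2 scale, and in the fifth with the highest it was -0.68 and -1.30. These libraries had the lowest sums both of the epithelial markers, at 2852 and 2156 CPM, and of the other cell types' markers, at 33.9 and 22.0 CPM, and sgVec+IR replicate 3 had 7561 genes with no count against 4577 to 5232 in the other 5. The differences of the 9 genes are therefore given for all 6 libraries, with these 2 left out, and after a correction for GC content, the last 2 being choices made after the data were seen.

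Per kilobase of exon, the level of the 9 genes spanned from 8.74 CPM per kb for MDM4 to 388 CPM per kb for CDKN1A, as means over the 6 libraries. CDKN1A ranked 46 among 12913 genes with a length. CCNG1 followed at 106 CPM per kb, above 98.1% of the genes, and the lowest library of each of these stood above the highest library of the gene next in order. PLK2 at 52.6, BTG2 at 46.4 and GADD45A at 41.2 CPM per kb overlapped from neighbour to neighbour in their ranges over the libraries. The same held for GADD45A with MDM2 at 28.6 and for MDM2 with PPM1D at 26.7 CPM per kb. ZMAT3 at 12.7 CPM per kb lay below PPM1D in every library and its range just reached that of MDM4.

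Among the feedback genes, MDM2 lies on chromosome 12 from 68808176 to 68850686 on the forward strand (GRCh38, GENCODE release 29). It was counted at 319, 432 and 343 CPM in CAD-KO2+IR replicates 1 to 3 and at 333, 343 and 509 CPM in sgVec+IR. The highest value of each group came from the library that stood apart, and the groups overlapped. The log2 fold change of CAD-KO2+IR over sgVec+IR was -0.11 (SE 0.218, unadjusted p = 0.617 in edgeR's quasi-likelihood test), and with the 2 libraries left out it was -0.02 (SE 0.0563). The adjusted p of each of the 9 genes in the fit of all 6 libraries was 0.9999. Reads on MDM2 may also belong to overlapping genes, since 4 GENCODE genes share its span, 1 of them the protein-coding carboxypeptidase M gene on the other strand, and the strand setting of the counting is not given in the sources used here.

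MDM4, which binds p53 together with MDM2, lies on chromosome 1 from 204516379 to 204558120. Its values were 78.9, 103 and 95.4 CPM in CAD-KO2+IR and 97.1, 97.3 and 106 CPM in sgVec+IR. Only CAD-KO2+IR replicate 2 reached into the range of the controls. The difference was -0.12 on the log2 scale (SE 0.166, unadjusted p = 0.4997 in edgeR) for all libraries and -0.15 (SE 0.0758, adjusted p = 0.165) without the 2 libraries.

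The RNA of both p53 inhibitors can be compared within a library as the ratio of their counts, which does not depend on the scaling. The ratio is not corrected for transcript length, and protein was not measured in these libraries. The log2 ratio of MDM2 to MDM4 counts was 2.02, 2.07 and 1.85 in CAD-KO2+IR and 1.78, 1.82 and 2.26 in sgVec+IR. The group means of 1.98 ± 0.117 and 1.95 ± 0.268 differed by 0.03 (two-sided exact permutation test, p = 0.8, adjusted over 2 ratios 0.8). The difference was 0.13 with the 2 libraries left out and 0.03 after the GC correction, and leaving out sgVec+IR replicate 1, sgVec+IR replicate 2 or CAD-KO2+IR replicate 2 turned it to -0.06, -0.04 and -0.02. With 3 libraries against 3 this test cannot go below 0.1.

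PPM1D lies on chromosome 17 from 60600183 to 60666280. It was counted at 119, 135 and 120.3 CPM in CAD-KO2+IR and at 139, 133 and 162 CPM in sgVec+IR. Again only CAD-KO2+IR replicate 2 lay above a control library, sgVec+IR replicate 2. On the log2 scale CAD-KO2+IR differed by -0.21 (SE 0.156, unadjusted p = 0.217 in edgeR). It was -0.18 (SE 0.0655, adjusted p = 0.0476) with the 2 libraries left out, a fold change under 1.5. In that fit of 2 libraries against 2, 16.2% of all genes had an adjusted p under 0.05 in edgeR.

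CCNG1 encodes cyclin G1, which recruits the phosphatase PP2A to MDM2, and lies on chromosome 5 from 163437569 to 163446151. Its values were 218, 388 and 252 CPM in CAD-KO2+IR and 259.5, 254 and 597 CPM in sgVec+IR. With a fold of 2.74 between its highest and lowest library it varied more than any other member, and the same libraries, replicate 2 of the knockout and replicate 3 of the control, stood far above the rest of their groups. Its log2 fold change was -0.37 (SE 0.391, unadjusted p = 0.374 in edgeR), and -0.12 (SE 0.0615, adjusted p = 0.168) without these 2 libraries.

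ZMAT3, an RNA-binding zinc finger protein that has been linked to the stability and splicing of transcripts of the p53 pathway, lies on the reverse strand of chromosome 3 from 179017223 to 179072279. It was counted at 103, 141 and 114 CPM in CAD-KO2+IR and at 92.2, 103 and 179 CPM in sgVec+IR. The lowest and the highest value were both control libraries. The log2 fold change of -0.06 (SE 0.285, unadjusted p = 0.835 in edgeR) turned to 0.16 (SE 0.0719, adjusted p = 0.122) with the 2 libraries left out, so no direction is given for this gene.

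**Figure D1:**
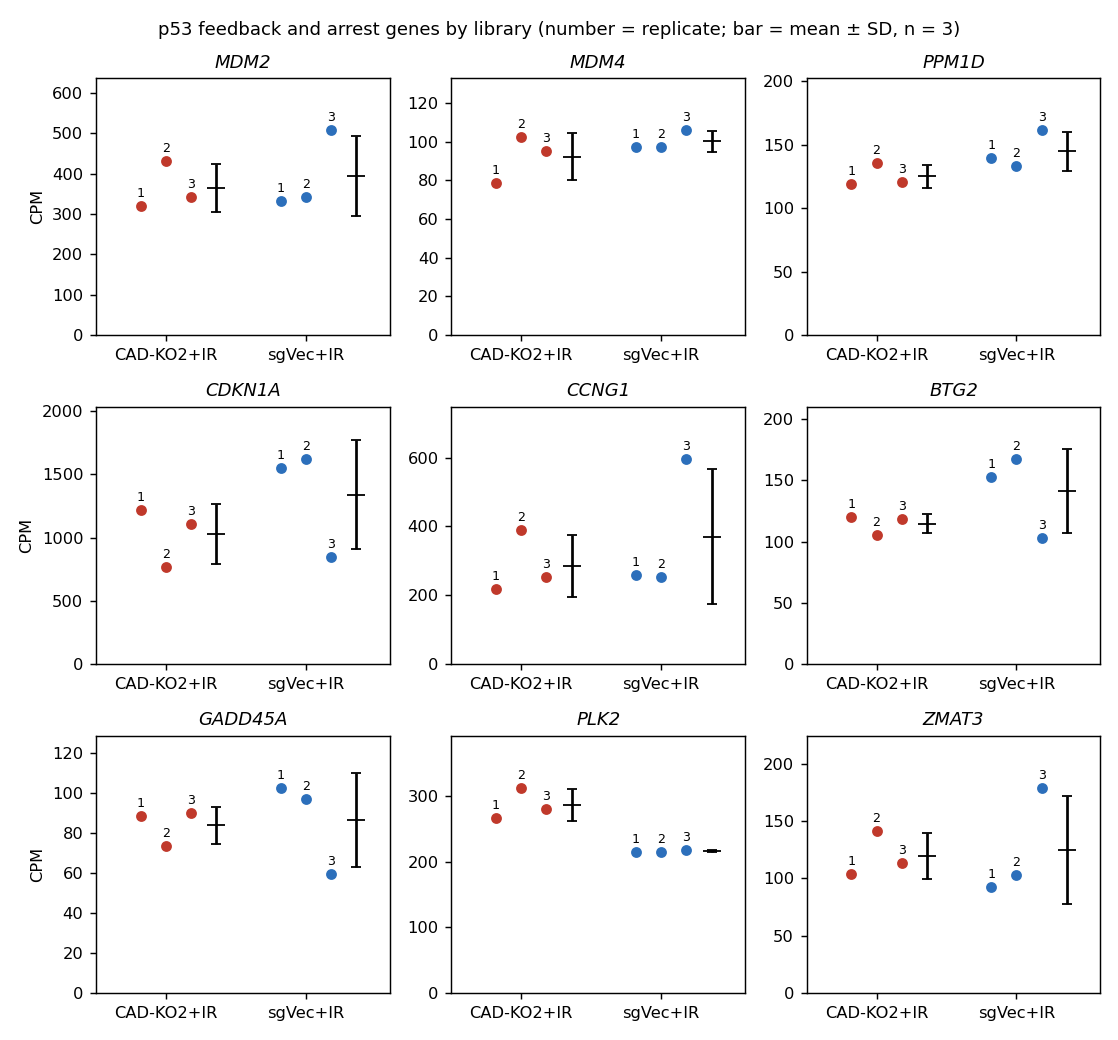
CPM (y axis, from 0) of the 9 genes in each of the 6 libraries, with CAD-KO2+IR in red, sgVec+IR in blue, the replicate number above each point and the mean ± SD (n = 3) beside each group. In all panels but that of PLK2 the groups overlap, and replicate 2 of CAD-KO2+IR and replicate 3 of sgVec+IR lie on the same side of the rest of their groups.

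The arrest genes on which the comparison turns most are CDKN1A, BTG2 and PLK2, the members with the largest differences in opposite directions once the 2 libraries were left out. Their promoters are shown from RefSeq (GRCh38.p14), each read 5′ to 3′ on the strand of the gene, from 250 bases before to 50 bases after the annotated start. The windows are chr6:36678464-36678763 on the forward strand for CDKN1A, chr1:203305269-203305568 on the forward strand for BTG2 and chr5:58460037-58460336 on the reverse strand for PLK2. The CDKN1A window lies wholly inside the GENCODE span of the gene, which begins at 36676460, so the RefSeq start used is a later one. Capitals mark GGGCGG, the core of the GC box, on either strand and, in PLK2, a match to the 10-base p53 half-site.
CDKN1A: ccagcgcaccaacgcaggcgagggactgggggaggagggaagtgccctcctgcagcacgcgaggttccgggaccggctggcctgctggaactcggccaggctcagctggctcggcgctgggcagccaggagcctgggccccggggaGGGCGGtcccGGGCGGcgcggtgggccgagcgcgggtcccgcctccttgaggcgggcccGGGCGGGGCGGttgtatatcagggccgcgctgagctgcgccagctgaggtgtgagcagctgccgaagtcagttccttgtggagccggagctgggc
BTG2: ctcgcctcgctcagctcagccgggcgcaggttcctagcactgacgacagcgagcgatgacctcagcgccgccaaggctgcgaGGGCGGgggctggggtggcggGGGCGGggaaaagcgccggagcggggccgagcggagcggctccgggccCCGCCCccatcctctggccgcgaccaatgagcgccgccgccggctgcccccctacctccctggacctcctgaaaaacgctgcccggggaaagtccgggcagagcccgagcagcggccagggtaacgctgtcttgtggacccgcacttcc
PLK2: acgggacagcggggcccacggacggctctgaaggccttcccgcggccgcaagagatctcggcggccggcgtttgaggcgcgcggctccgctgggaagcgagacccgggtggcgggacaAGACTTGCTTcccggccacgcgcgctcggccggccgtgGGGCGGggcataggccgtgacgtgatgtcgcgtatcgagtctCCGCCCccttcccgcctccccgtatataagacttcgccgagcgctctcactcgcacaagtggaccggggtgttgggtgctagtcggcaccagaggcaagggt

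The RefSeq table held such a window for 8 of the 9 genes, all but GADD45A. In the window of PLK2 the half-site match AGACTTGCTT began 132 bases before the start, and the other 7 windows held none, against 5.92% of 15397 promoters of the genes in the table with at least 1. GGGCGG occurred in 7 of the 8 windows, with 4 sites in CDKN1A, 2 of them overlapping, 3 in BTG2 and 2 in PLK2, and in 59.2% of all promoters. TATAA was present in PLK2 alone, 28 bases before the start, and in 16.7% of all promoters. The half-site was scanned as an exact match to RRRCWWGYYY, with R for A or G, W for A or T and Y for C or T. Sites with a mismatch or outside the window were not counted, so a window without a match does not show that a gene lacks a p53 site. These are matches of letters in a short window and no measure of binding.

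CDKN1A lies on chromosome 6 from 36676460 to 36687339. It was counted at 1216, 764 and 1109 CPM in CAD-KO2+IR and at 1549, 1625 and 847 CPM in sgVec+IR, from at least 12007 reads in each library, so that counting error is small beside these gaps. Both libraries that stood apart were the lowest of their group, and sgVec+IR replicate 3 lay below 2 of the 3 knockout libraries. The log2 fold change was -0.38 (SE 0.286, unadjusted p = 0.226 in edgeR). With the 2 libraries left out it was -0.44 (SE 0.0498, adjusted p = 1.44e-09), again less than 1.5-fold. That fit of 2 libraries against 2 was chosen after the data were seen. In it 16.2% of all genes had an adjusted p under 0.05 in edgeR. A long noncoding gene of GENCODE, DINOL, overlaps CDKN1A on the other strand and has no row of its own in the table.

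The log2 ratio of CDKN1A to MDM2 counts, the main arrest gene against the main feedback gene, was 1.93, 0.82 and 1.69 in CAD-KO2+IR and 2.22, 2.25 and 0.74 in sgVec+IR. In linear terms CDKN1A had between 1.66 and 4.74 times the reads of MDM2, and both extremes were control libraries. The means of 1.48 ± 0.582 and 1.73 ± 0.864 differed by -0.25 (two-sided exact permutation test, p = 0.6, adjusted over 2 ratios 0.8). The difference turned to 0.08 without CAD-KO2+IR replicate 2 and was near 0 without sgVec+IR replicate 1 or 2 (-0.01 and 0.00). It was -0.75 without sgVec+IR replicate 3, so its direction was not stable to leaving out 1 library. With the 2 libraries that stood apart left out it was -0.42. After the GC correction the log2 ratios were 1.57, 1.33 and 1.46 against 1.77, 1.76 and 1.71, with no overlap and a difference of -0.29 (exact permutation test, p = 0.1, the smallest it can give). This p was not adjusted over the 2 ratios, and the correction was added after the data were seen. How often other pairs of genes separate in this way was not counted.

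BTG2, an antiproliferative protein that binds the CCR4-NOT deadenylase, lies on chromosome 1 from 203305491 to 203309602. Its values were 120.2, 106 and 118 CPM in CAD-KO2+IR and 153, 168 and 103 CPM in sgVec+IR. The knockout libraries lay close together, and sgVec+IR replicate 3, the lowest of all, lay far below the other controls. This gave a log2 fold change of -0.30 (SE 0.213, unadjusted p = 0.201 in edgeR), and -0.42 (SE 0.0655, adjusted p = 2.97e-06) without the 2 libraries. The latter fit, of 2 libraries against 2, gave 16.2% of all genes an adjusted p under 0.05.

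GADD45A, a small stress protein that binds p21, PCNA and CDK1, lies on chromosome 1 from 67685061 to 67688338. It was counted at 88.3, 73.3 and 89.8 CPM in CAD-KO2+IR and at 103, 97.2 and 59.6 CPM in sgVec+IR. As for BTG2, sgVec+IR replicate 3 was the lowest of all 6 and the other controls were the highest. Between the groups the log2 difference was -0.05 (SE 0.240, unadjusted p = 0.850 in edgeR), and -0.16 (SE 0.0705, adjusted p = 0.109) without the 2 libraries.

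PLK2, a polo-like kinase that p53 activates and that acts at the G1 and S phase checkpoints and in centriole duplication, lies on the reverse strand of chromosome 5 from 58453982 to 58460260. It was counted at 266, 313 and 281 CPM in CAD-KO2+IR and at 214, 215 and 218 CPM in sgVec+IR. All 3 knockout libraries stood above all 3 controls, which were nearly equal, and sgVec+IR replicate 3 did not stand apart here. The log2 fold change was 0.41 (SE 0.136, a fold of 1.33, unadjusted p = 0.0199, adjusted p = 0.9999 in edgeR). It was 0.35 (SE 0.0584, adjusted p = 1.08e-05) without the 2 libraries, in a fit of 2 against 2 where 16.2% of all genes had an adjusted p under 0.05. Over all genes tested, 10.2% had groups that did not overlap, and 5.23% of all genes did so with the knockout higher, so that 1 gene of 9 is near the share of all genes.

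Across the 9 genes, 0 were called in edgeR at an adjusted p under 0.05 and a fold of at least 1.5, against 0.0309% of all genes tested. At an unadjusted p under 0.05 there was 1, PLK2, against 2.85% of all genes, and DESeq2 likewise called 0 of the 9, against 0.364%. The paper, with DESeq2 at the same thresholds, reports more differential genes than the 47 called here, and the reason was not tested. The fitted level was lower in CAD-KO2+IR for 8 of 9 genes and for 51.9% of all genes, and the median log2 fold change was -0.12 against -0.01. Without sgVec+IR replicate 3 alone, 5 of 9 were lower, as MDM2, CCNG1 and ZMAT3 turned to 0.11, 0.16 and 0.29, and GADD45A turned to 0.10 without sgVec+IR replicate 1. With the 2 libraries that stood apart left out, 7 of 9 were lower, against 50.4% of all genes. With the GC correction over all 6 libraries it was 8 of 9, against 49.3%. For PLK2 the unadjusted p was 0.0373 without CAD-KO2+IR replicate 1 and 0.0105 without sgVec+IR replicate 3, and between 0.0545 and 0.0682 when any of the other 4 libraries was left out. With CAD-KO2+IR replicate 2 and sgVec+IR replicate 3 left out, 4 of 9 genes had an adjusted p under 0.05 at any fold, PLK2 higher and CDKN1A, BTG2 and PPM1D lower, against 16.2% of all genes in that fit of 2 libraries against 2. None of these 4 reached 1.5-fold, as 3.37% of all genes did. With the GC correction on the same 4 libraries, 6 of 9 had an adjusted p under 0.05, with MDM4 (-0.22, edgeR adjusted p = 0.00697) and CCNG1 (-0.25, adjusted p = 4.7e-05) added on the lower side, against 16.6% of all genes. With all 6 libraries weighted by voom, it was the same 4 genes as without the correction, against 22.3%.

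**Figure D2:**
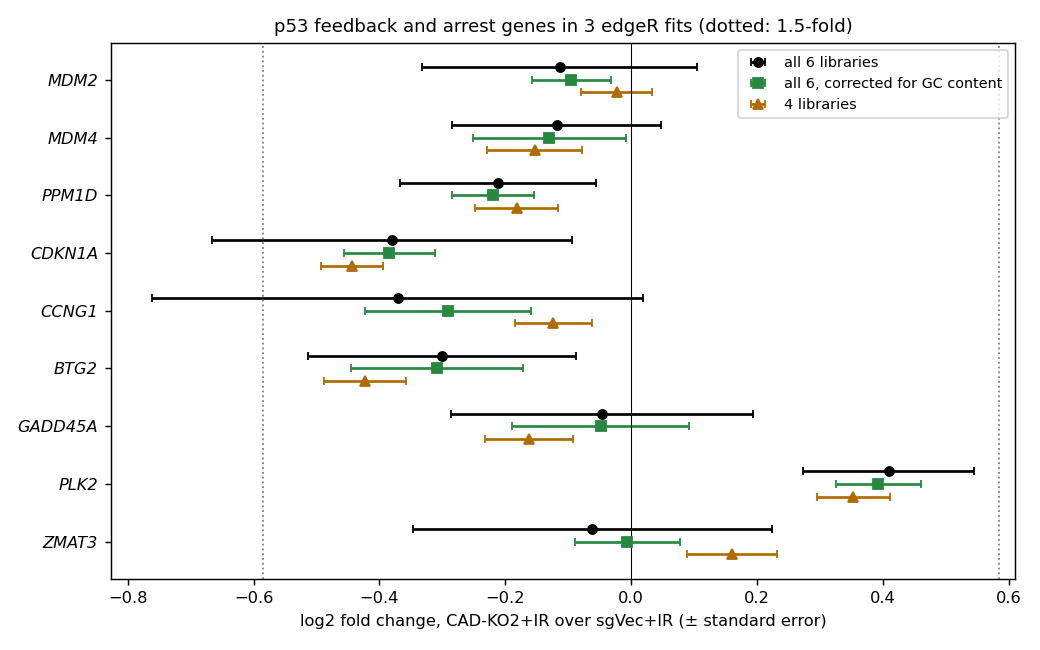
Log2 fold change of CAD-KO2+IR over sgVec+IR (x axis, ± SE) of the 9 genes in 3 edgeR fits: all 6 libraries (black circles), all 6 corrected for GC content (green squares) and the 4 libraries left without CAD-KO2+IR replicate 2 and sgVec+IR replicate 3 (brown triangles). PLK2 lies to the right of 0 in each fit, from 0.35 to 0.41, and CDKN1A to the left, from -0.44 to -0.38, while ZMAT3 crosses 0 and no point reaches the dotted lines at 1.5-fold.

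The spread of the 9 genes within their groups went with the GC content of their transcripts, which ran from 38.2% in CCNG1 to 58.1% in CDKN1A around a median of 49.4% over all matched genes. Against the mean of the other 2 libraries of its group, CAD-KO2+IR replicate 2 lay higher by 0.73 for CCNG1, 0.38 for ZMAT3 and 0.38 for MDM2 on the log2 scale, and lower for CDKN1A at -0.60. In sgVec+IR replicate 3 the same genes deviated further, by 1.22, 0.88, 0.59 and -0.91. The 3 genes with over 50% GC, BTG2, GADD45A and CDKN1A, lay below the rest of the group in both libraries, and the 6 with less lay above. All 9 genes thus deviated in the same direction in both libraries, as did 81.4% of all genes.

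Some of these deviations lay near the trend of all genes with the same GC content, and others did not. For CDKN1A the trend was -0.46 and -0.92 in the 2 libraries, beside its own -0.60 and -0.91, and for MDM2 it was 0.33 and 0.53, beside 0.38 and 0.59. The deviation of PPM1D in sgVec+IR replicate 3 was 0.25 and the trend 0.27. Further from the trend in that library were BTG2, at -0.64 beside -0.17, GADD45A, at -0.74 beside -0.28, CCNG1, at 1.22 beside 0.82, and MDM4, at 0.13 beside 0.49. In CAD-KO2+IR replicate 2, CCNG1 was at 0.73 beside 0.44, GADD45A at -0.28 beside -0.11 and BTG2 at -0.17 beside -0.05. What set these libraries apart was not tested.

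**Figure D3:**
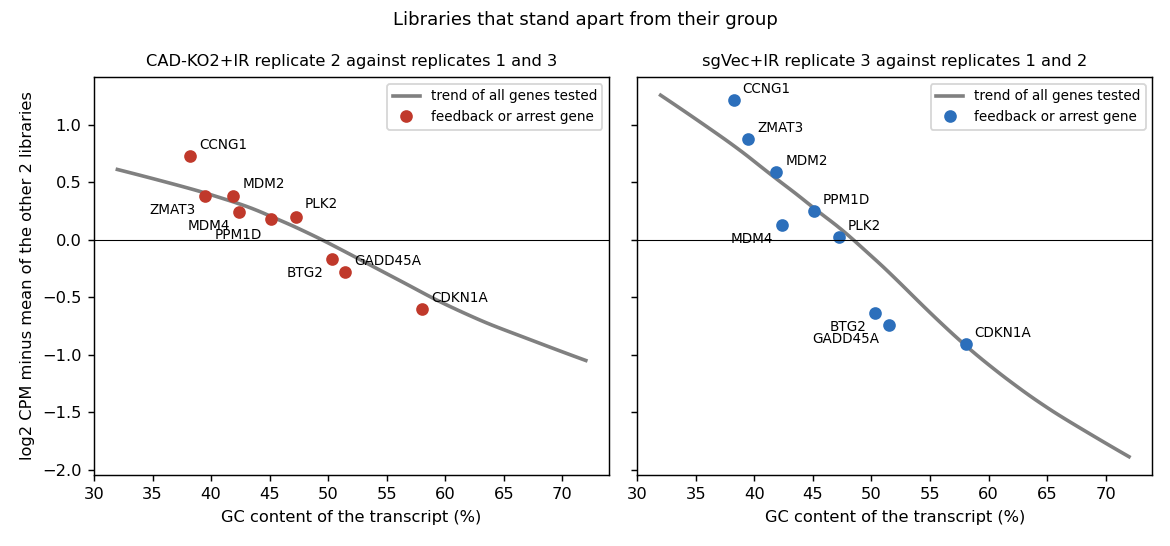
Deviation of CAD-KO2+IR replicate 2 (left) and sgVec+IR replicate 3 (right) from the mean of the other 2 libraries of their group (y axis, log2 CPM with a pseudocount of 0.5) against the GC content of the transcript (x axis, percent) for the 9 genes, with the lowess trend over all genes tested in grey. Genes of low GC content such as CCNG1 lie above 0 in both and CDKN1A lies lowest of the 9, at -0.60 and -0.91.

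After each library was corrected for its own GC trend, CDKN1A stood at 1041, 928 and 998 adjusted CPM in CAD-KO2+IR and at 1272, 1315 and 1286 in sgVec+IR. All knockout libraries then lay below all controls, and sgVec+IR replicate 3 no longer stood apart for this gene. PPM1D separated in the same way, at 125, 122 and 124 against 148, 142 and 142 adjusted CPM, and MDM2 by a narrow gap, at 350.3, 369 and 362 against 373, 388 and 393. PLK2 stayed higher in every knockout library, at 271, 295 and 283 against 220.0, 221 and 206. So 4 of 9 genes had groups that did not overlap, against 21.5% of all genes, 10.2% with the knockout lower and 11.3% with it higher.

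In the fit with this correction over all 6 libraries, the log2 fold change of CDKN1A was -0.38 (SE 0.0722, edgeR adjusted p = 0.112), as large as without it and with a smaller error. That of PLK2 was 0.39 (SE 0.0680, adjusted p = 0.0839) and that of PPM1D -0.22 (SE 0.0652, adjusted p = 0.321). An unadjusted p under 0.05 was reached by these 3 of the 9 genes, against 10.6% of all genes. No member had an adjusted p under 0.05, against 0.341% of all genes, and 0.318% of all genes also had a fold of at least 1.5. After the correction sgVec+IR replicate 3 was still the lowest of the 6 libraries for GADD45A and the highest for CCNG1, and for BTG2 it lay below 2 of the 3 knockout libraries. For MDM4 the correction moved it from the highest of the 6, at 106 CPM, to the lowest, at 83.8 adjusted CPM. The correction rests on the same counts and does not show what the deviation came from.

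The other genes of the pathway were counted in 8 lists of 142 genes, none of which had a gene called in the fit of all 6 libraries, and all counts and medians of lists are to be read beside the 51.9% of all genes that were lower and their median of -0.01. Of 16 p53 targets with a role in apoptosis, 15 had a lower fitted level in the knockout, and the median log2 difference was -0.14. Leaving out replicate 2 of either group, knockout or control, left 9 of 16 lower at a median of -0.03. The most abundant of them were the death receptor TNFRSF10B (-0.13), the membrane protein PERP (-0.15) and the nuclease AEN (-0.04). Of 20 tested targets in DNA repair, metabolism and stress, 15 were lower with a median of -0.22 (-0.11 with the 2 libraries left out and -0.08 without sgVec+IR replicate 3), led in level by the ribonucleotide reductase subunit RRM2B (-0.25), the helicase ASCC3 (-0.01) and CYFIP2 (-0.28), a partner of the fragile X protein. CYFIP2 had 219.8 ± 3.38 CPM in the knockout against 266 ± 3.60 CPM in the control, at an unadjusted p of 0.0648 in edgeR. Its groups did not overlap, as for 5.01% of all genes tested with the knockout lower. The 8 further arrest targets split into 4 lower and 4 higher, with a median of 0.00, and held SFN, which sequesters cyclin B and CDK1 (-0.08), TGFA (0.24) and PLK3 (-0.18).

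Upstream of the 9, of 17 kinases, acetylases and ubiquitin enzymes that act on p53, 11 were higher and 6 lower with a median of 0.09, among them the DNA-dependent kinase PRKDC (0.02), the ubiquitin ligase HUWE1 (0.15) and USP7 (0.24), which removes ubiquitin from p53 and MDM2. Of 15 cyclins, kinases and partners on which p21 acts, 10 were lower with a median of -0.04, and CCND1, the cyclin of early G1, was at 1062 ± 43.7 against 817 ± 78.1 CPM (log2 0.38, edgeR unadjusted p = 0.0199, adjusted p = 0.9999). Without sgVec+IR replicate 3, and likewise with the 2 libraries left out, 4 of these 15 were lower, with medians of 0.19 and 0.08. The count was 7 of 15 (median 0.001) without CAD-KO2+IR replicate 3 and 8 of 15 (median -0.002) without CAD-KO2+IR replicate 1. The direction of this list thus changed with the libraries used. CDK6 (-0.04) and PCNA (-0.09) were the next in level. Of 30 cell-cycle genes that p21 represses through the DREAM complex, 18 were higher with a median of 0.03, and the most abundant were MKI67 (0.22), TOP2A (-0.32) and CENPF (0.01). Of 22 tested paralogs of the 9 genes, 12 were higher with a median of 0.02, and PPM1G (0.17), CCNI (-0.07) and TOB1 (0.06) were the most abundant. Of 16 immediate early and ATF4-linked genes, 9 were lower with a median of -0.02, and ATF4 (0.17), MYC (-0.02) and FOSL1 (0.53) led in level. The medians of these last 3 lists changed sign without CAD-KO2+IR replicate 2, to -0.06, -0.05 and 0.14, and without sgVec+IR replicate 2, to -0.01, -0.05 and 0.11, and those of the paralogs and of the immediate early genes also without sgVec+IR replicate 1, to -0.06 and 0.08. With the 2 libraries that stood apart left out, the median of the immediate early genes was 0.09.

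An unadjusted p under 0.05 in edgeR was reached in these lists by TP53INP1, CCNG2 and DDIT4 with lower values in CAD-KO2+IR. CCND1, JUN and KLF6, among others, reached it with higher ones, and all but CCND1 were named after their values were seen. By list it was 1 of 16 apoptotic targets, 1 of 8 further arrest targets and 1 of 15 cyclins, kinases and partners. It was also 1 of 22 paralogs and 3 of 16 immediate early and ATF4-linked genes. The other lists had 0, and 2.85% of all genes tested reached that p. CCNG2 is the paralog of CCNG1 and is known as a cyclin of resting cells, and it was counted at 17.0, 16.9 and 16.9 CPM in CAD-KO2+IR and at 24.2, 27.7 and 39.7 CPM in sgVec+IR (log2 -0.85, edgeR unadjusted p = 0.00859). Unlike its paralog, its groups did not overlap, as for 5.01% of all genes tested with the knockout lower. The difference between the paralogs was not tested. DDIT4, which restrains mTORC1, was called after the GC correction (log2 -0.90, edgeR adjusted p = 0.0120), with TP53INP1 (-0.64, adjusted p = 0.0247). With the 2 libraries left out, GDF15, DDIT4, CCNG2, JUN and TP53I3 were among those called, likewise named by value. In all 6 of the 142 list genes and 0 of the 9 were called in that fit, beside 3.37% of all genes.

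**Figure D4:**
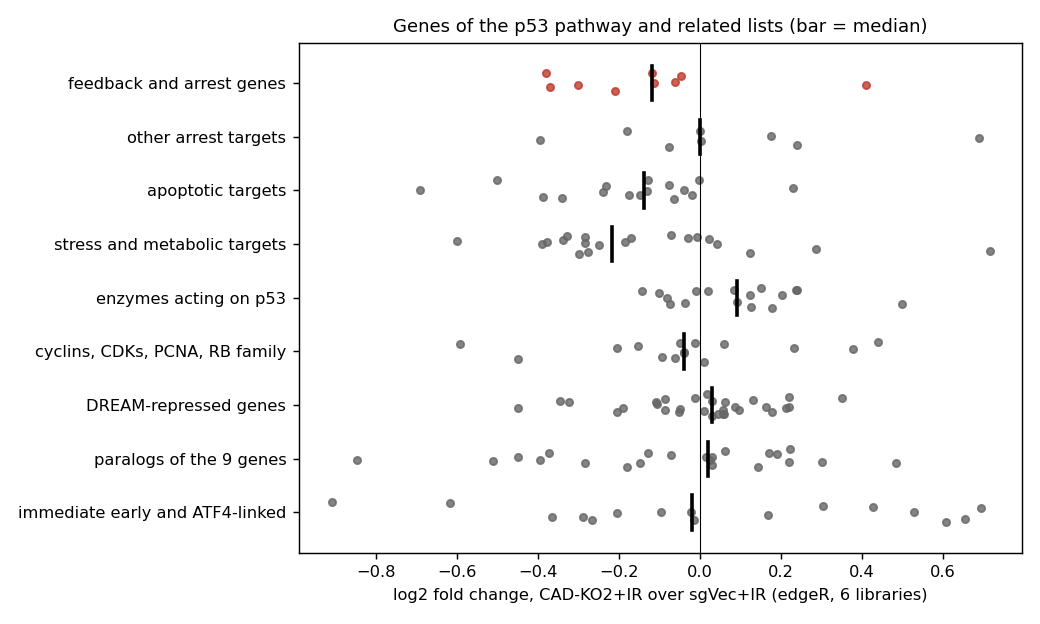
Log2 fold change of CAD-KO2+IR over sgVec+IR (x axis, edgeR, 6 libraries) of each tested gene of the 9 feedback and arrest genes (red) and of the 8 other lists (grey), with a black bar at each median. The medians of the feedback and arrest genes, the apoptotic targets and the stress and metabolic targets lie at -0.12, -0.14 and -0.22, the other 6 between -0.04 and 0.09.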

How the data were processed

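The 6 RNA-seq libraries of HCT116 cells were grouped by sample title, 3 to each group. The dose, the time and the guide are those of the paper's text. The authors passed reads through fastp, counted them with featureCounts (1.5.0-p3) and deposited the unnormalized counts of each gene. The aligner and strand setting are not given in the sources used here, and the submitters' notes name the build mm10 although the gene identifiers are human.

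Genes were kept by filterByExpr (minimum count 10, minimum total 15). Groups were compared with edgeR 4.0.16 in R 4.3.3 (TMM, quasi-likelihood test with legacy set to FALSE, Benjamini-Hochberg over 12925 genes). DESeq2 1.42.0, limma 3.58.1, other scalings and filters, the replicate block and each library left out were alternatives. Leaving out 2 libraries together and a GC correction (lowess, span 0.3) were added once the data had been seen. The GC content used was that of the longest coding transcript of GENCODE release 29, matched for 19472 of 20020 genes, and exon lengths for 19823. The scripts were tested on simulated data.

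The members and lists were chosen with earlier results of these data known. Genes named are the members, DFFB, the 3 most abundant of each list, any list gene called in the fit of all 6 libraries, and those said to be chosen by value. Some genes of the lists are not reported here by name.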

Additional observations from a re-analysis of the deposited data

How the results depend on the processing

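Over 21 alternatives to the edgeR fit of all 6 libraries, none of the 9 genes was called at an adjusted p under 0.05 and 1.5-fold. The sign held in all 21 for MDM4 (-0.22 to -0.0019), PPM1D (-0.27 to -0.12), CDKN1A (-0.62 to -0.20), BTG2 (-0.48 to -0.15) and PLK2 (0.33 to 0.47). MDM4 came close to 0, and the alternatives use the same libraries or some of them, so they are not independent. The cause of the other changes was not tested. With each library left out in turn, the log2 fold change ran from -0.25 to 0.11 for MDM2 and from -0.66 to 0.16 for CCNG1, both highest without sgVec+IR replicate 3. It ran from -0.25 to 0.098 for GADD45A (0.043 without CAD-KO2+IR replicate 2, 0.098 and 0.051 without sgVec+IR replicates 1 and 2) and from -0.24 to 0.29 for ZMAT3 (0.048 without CAD-KO2+IR replicate 1, 0.29 without sgVec+IR replicate 3), and 5 to 8 genes were lower in the knockout, 5 of them without sgVec+IR replicate 3. The same fits gave 0 to 3 members at an unadjusted p under 0.05, the 3 without sgVec+IR replicate 3, where 11.9% of all genes reached it (1.22% to 2.17% in the other 5 fits), and 0% to 0.167% of all genes called. The difference of the log2 MDM2 to MDM4 ratio ran from -0.059 to 0.18 (-0.019 without CAD-KO2+IR replicate 2, -0.040 without sgVec+IR replicate 2) and that of the CDKN1A to MDM2 ratio from -0.75 to 0.078 (0.0049 without sgVec+IR replicate 2).

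Members at an unadjusted p under 0.05, 1 in the fit of all 6 libraries, numbered 6 with voom sample weights (37.1% of all genes), 3 with the GC correction (10.6%), 8 without CAD-KO2+IR replicate 2 and sgVec+IR replicate 3 (29.7%), and 8 with both changes (28.6%). All genes called made up 0.364% in DESeq2, 0% in limma-voom, 5.15% with weights, 3.37% without the 2 libraries, 0.318% with the GC correction and 2.93% with both. List genes called were 8, 6, 2 and 5 with weights, without the 2 libraries, with the correction and with both. MDM2 turned to 0.0055 with weights, and ZMAT3 to 0.20 with weights, 0.16 without the 2 libraries and 0.054 with both. The weights were lowest for the same 2 libraries, at 0.154 and 0.0404.

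The labels number the libraries of both groups, and deviations of same-numbered libraries correlated at 0.570, -0.641 and -0.461. The 2 libraries that stood apart carry different numbers, and their deviations correlated at 0.654. These values therefore cannot tell whether the numbers pair the libraries. With the replicate block, PLK2 was at 0.41 (edgeR unadjusted p = 0.102), 0 members had an unadjusted p under 0.05 and 0% of all genes were called. The ratio differences, 0.03 and -0.25, cannot change with the block in this balanced design. With the GC correction and the block, 3 members had an unadjusted p under 0.05 (6.98% of all genes). The lowest count of any of the 9 genes in a library was 845.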
